A study of Mus musculus with 2 samples.

Results

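The microRNAs miR-21, miR-199 and miR-214 are known for their activity in fibroblasts, the matrix-producing cells of connective tissue, and were followed here through 5 of the 2202 annotated hairpins of the mouse. The hairpins were chosen by name: Mir21a, Mir214, Mir199a-2, which lies in the same long noncoding RNA as Mir214, and the other miR-199 hairpins, Mir199a-1 and Mir199b. They were counted in whole heart tissue of 2 female B6CASTF1/J mice aged 25 days, an F1 cross of a B6 and a CAST parent strain. The labels name no treatment, transgene or deletion, and both libraries belong to 1 group. They number the hearts as biological replicates 1 and 2 and describe them as separate animals, although both carry 1 donor identifier, and a free-text label gives the age in months instead of days. No sort or dissection of cell types is named, so the cells that gave these counts are not known. Fewer cells of a type and less RNA per cell cannot be told apart in them.

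A microRNA hairpin is a folded precursor from which a 5p and a 3p arm are cut. One arm is usually loaded into an Argonaute protein and pairs with messenger RNAs through its seed, the bases near its 5′ end. miR-21 is induced in cardiac fibroblasts of the stressed heart, where it represses Spry1, an inhibitor of growth factor signalling. The Dnm3os transcript carries miR-199a and miR-214 and is active in mesenchyme of the embryo and in activated fibroblasts. In the heart, miR-214 is also known to repress the sodium-calcium exchanger of cardiomyocytes, and miR-199a-3p to promote cardiomyocyte division.

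RefSeq, on build GRCm38.p6, held all 5 hairpins and listed 9 mature arms for them, with 6 distinct sequences. They are shown because they decide which hairpin a short read can be assigned to. Each is written 5′ to 3′ with its seed, bases 2 to 8, in capitals.
miR-21a-5p: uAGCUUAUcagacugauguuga
miR-21a-3p: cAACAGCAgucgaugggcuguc
miR-214-5p: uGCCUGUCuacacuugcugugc
miR-214-3p: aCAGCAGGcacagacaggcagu
miR-199a-5p: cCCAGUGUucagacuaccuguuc
miR-199a-3p and miR-199b-3p: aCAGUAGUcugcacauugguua

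The arms of Mir21a and Mir214 each occurred in 1 annotated hairpin, their own. The sequence of miR-199a-5p occurred in 2 hairpins, Mir199a-1 and Mir199a-2, and that of miR-199a-3p in all 3 miR-199 hairpins. No seed was shared among miR-21, miR-214 and miR-199. Outside the 5 hairpins, the seed AGCUUAU of miR-21a-5p was found in miR-21c, and the seed CAGCAGG of miR-214-3p in miR-761. Mir21c and Mir761 had 0 counts in both libraries.

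The miR-199 hairpins are shown whole, with every stretch of at least 18 nt that another annotated hairpin also holds in capitals.
Mir199a-1: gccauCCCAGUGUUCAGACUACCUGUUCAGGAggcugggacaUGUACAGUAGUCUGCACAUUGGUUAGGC
Mir199a-2: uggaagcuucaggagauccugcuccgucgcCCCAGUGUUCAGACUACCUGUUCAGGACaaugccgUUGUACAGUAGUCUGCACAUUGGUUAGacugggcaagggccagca
Mir199b: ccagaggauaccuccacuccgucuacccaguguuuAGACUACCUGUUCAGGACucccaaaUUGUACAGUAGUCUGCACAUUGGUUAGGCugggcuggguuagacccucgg

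In Mir199a-1 and Mir199a-2 the capitals covered both arms, and in Mir199b the whole 3p arm and part of the 5p side. Shared stretches took up 55 of the 70 nt of Mir199a-1, 55 of the 110 nt of Mir199a-2 and 47 of the 110 nt of Mir199b. The longest run in common was 28 nt between Mir199a-1 and Mir199b and 27 nt for the other 2 pairs. In Mir199b, the stretch closest to miR-199a-5p differed from it by 1 substitution, C10U, counted from the 5′ end of the arm. That stretch, with the substituted base in capitals, is cccaguguuUagacuaccuguuc. Mir21a and Mir214 shared no stretch of 18 nt with any annotated hairpin. The longest runs were 15 nt between Mir21a and Mir21c and 13 nt between Mir214 and Mir302d.

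**Figure D1:**
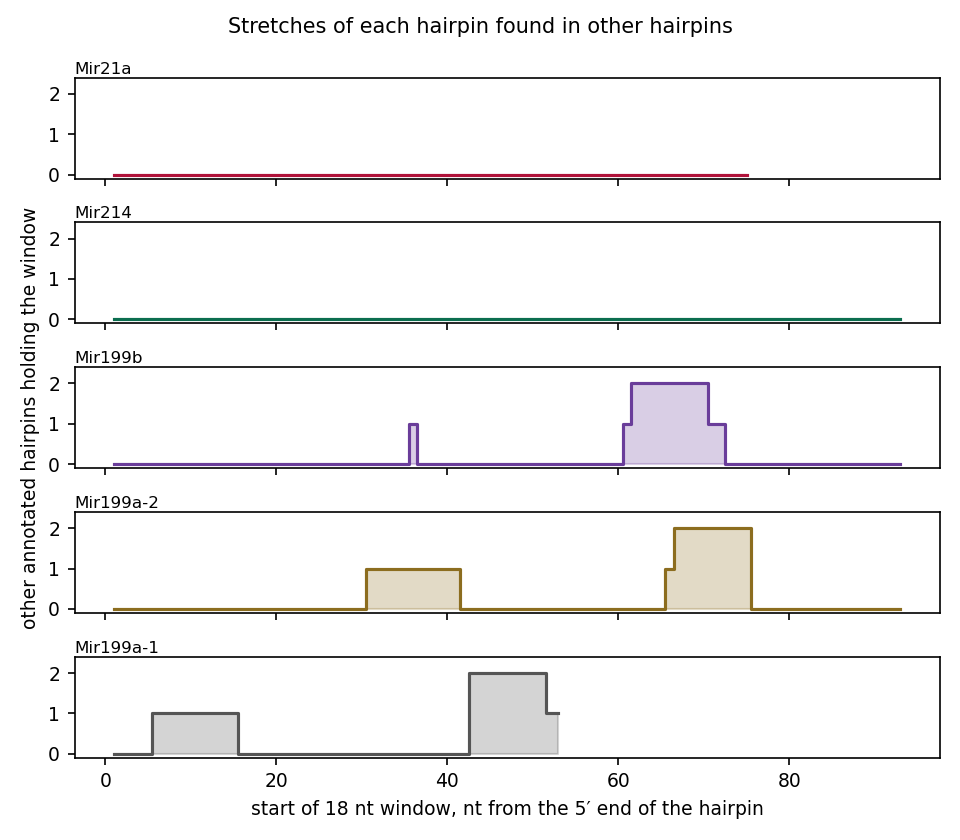
For each hairpin, the number of other annotated hairpins that hold the 18 nt window starting at each position, counted in nt from the 5′ end (x axis, nt; y axis, number of hairpins). Mir21a and Mir214 stay at 0 along their whole length, while the 3 miR-199 hairpins reach 2 over the 3p arm.

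The hairpins sit in 4 places of the mm10 genome. Mir21a lies on chromosome 11 from 86584067 to 86584158 on the minus strand, inside the UTR of exon 12 of Vmp1, a gene of autophagosome formation, on the same strand. Mir199a-2 (162217814 to 162217923) and Mir214 (162223368 to 162223477) lie on the plus strand of chromosome 1, with 5444 nt between them. Both are contained in exon 1 of the Dnm3os transcripts Dnm3os-201 and Dnm3os-202, and both are antisense to an intron of Dnm3. Mir199a-1 lies on the minus strand of chromosome 9 from 21496495 to 21496564, antisense to an intron of Dnm2. Mir199b lies on the plus strand of chromosome 2 from 32318460 to 32318569, antisense to an intron of Dnm1. Dnm1, Dnm2 and Dnm3 encode dynamins, which pinch vesicles from membranes. Thus 4 of the 5 hairpins lay inside a protein-coding gene of the opposite strand, as did 15.3% of all 2202 annotated hairpins.

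Values are given as deposited read counts and as CPM, the count of a hairpin scaled to a common library total of hairpin counts. That total was 2050498 for replicate 1 and 2661090 for replicate 2. A count of 0 allows up to 3 counts, which equal 1.46 and 1.13 CPM. Reads matching several places made up 38.5% and 41.6% of the libraries and entered no hairpin count. In both libraries every count of these 5 hairpins lay on the strand of the hairpin, with 0 on the opposite strand.

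Mir21a, the source of miR-21, was counted at nearly the same CPM in both hearts. It had 4048 counts in replicate 1 and 5064 in replicate 2. These were 1974 CPM (95% Wilson interval 1914 to 2036) and 1903 CPM (1851 to 1956), a mean of 1939 ± 50.3 CPM (SD, n = 2). The intervals of the libraries overlap. Mir21a ranked 42 and 41 among all hairpins in the 2 libraries.

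Mir214, the source of miR-214, was high in replicate 1 and much lower in replicate 2. It had 8717 counts against 1353, or 4251 CPM (4163 to 4341) against 508 CPM (482 to 536). The intervals are far apart, and the mean of 2380 ± 2647 CPM (SD, n = 2) has an SD above its own size. Its rank fell from 31 in replicate 1 to 76 in replicate 2.

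The 3 miR-199 hairpins had few counts. Mir199b had 29 counts in replicate 1 and 28 in replicate 2, or 14.1 CPM (9.85 to 20.3) and 10.5 CPM (7.28 to 15.2). Mir199a-2 had 9 and 6 counts, or 4.39 CPM (2.31 to 8.34) and 2.25 CPM (1.03 to 4.92). Mir199a-1 had 0 counts in both libraries. The intervals of Mir199b and Mir199a-2 did not overlap in replicate 1 or in replicate 2. These hairpins may not be counted alike. Both listed arms of Mir199a-2 also occur in Mir199a-1, while the 5p stretch of Mir199b differs from miR-199a-5p by C10U. Whether this bears on the difference in counts was not tested. Of the 5 hairpins, 3 reached 10 counts in both libraries, which 288 of all 2202 hairpins (13.1%) did.

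**Figure D2:**
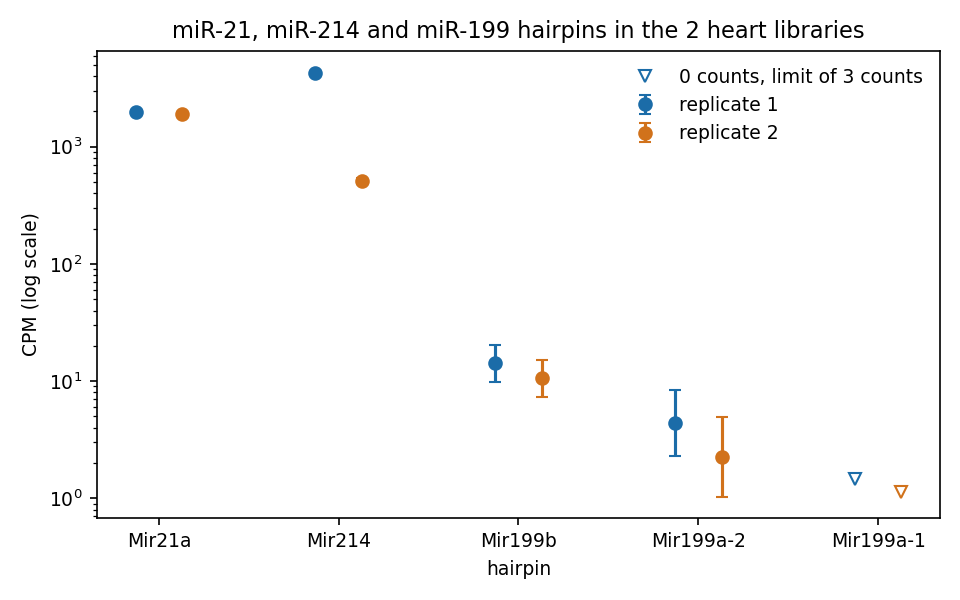
CPM of each hairpin in replicate 1 (blue) and replicate 2 (orange) on a log axis, with 95% Wilson intervals as bars where they exceed the point. Open triangles mark 0 counts at the limit of 3 counts. Mir21a is level, Mir214 drops from 4251 to 508 CPM, and no miR-199 hairpin is above 14.1 CPM.

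The order of levels therefore depended on the library at the top. Replicate 1 ran Mir214, Mir21a, Mir199b, Mir199a-2, Mir199a-1, and replicate 2 ran Mir21a, Mir214, Mir199b, Mir199a-2, Mir199a-1. Among the miR-199 hairpins, these orders carry the limit of shared arms given above. Division of CPM by hairpin length left both orders as they were, with 38647 and 21458 CPM per kb for Mir214 and Mir21a in replicate 1 and 4622 and 20685 in replicate 2. Together the 5 hairpins held 0.624% of the hairpin counts of replicate 1, with a 95% exact interval from 0.614 to 0.635. For replicate 2 the share was 0.242%, with an interval from 0.237 to 0.248, and the mean was 0.433% ± 0.270 (SD, n = 2). Mir21a made up 31.6% of that sum in the first library and 78.5% in the second. The miR-199 hairpins made up 0.297% and 0.527% of it.

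Mir214 and Mir199a-2 are both contained in exon 1 of the transcripts Dnm3os-201 and Dnm3os-202. In Dnm3os-204, exon 1 overlaps Mir199a-2 and exon 4 overlaps Mir214. The counts of Mir214 and Mir199a-2 were far apart. There were 969 counts of Mir214 for each count of Mir199a-2 in replicate 1 and 226 in replicate 2. As a share of the pair, Mir199a-2 was 0.103% in the first library and 0.442% in the second. The 95% exact intervals, from 0.0472 to 0.196 and from 0.162 to 0.958, overlap. Both listed arms of Mir199a-2 also occur in Mir199a-1, and both listed arms of Mir214 occur in Mir214 alone. Whether reads with more than 1 match, which no hairpin count includes, bear on the low miR-199 counts was not tested.

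Sharing of arms was also counted over all annotated hairpins for which RefSeq lists an arm under the same symbol. In this count, an arm was at a second hairpin only if RefSeq lists the identical sequence as an arm of that hairpin. An arm held inside a second hairpin but not listed there did not count, unlike in the search for the 5 hairpins above. Of 1678 listed arms, 109 (6.50%) were at a second hairpin in this sense, while for the miR-199 hairpins all listed arms were. Among 35 hairpins with all listed arms at a second hairpin, 3 (8.57%) had at least 10 counts in both libraries, among them Mir199b. It fell in this class because RefSeq listed only its 3p arm. Its 5p stretch, which differs from miR-199a-5p by C10U, did not enter, and the arm that gave its counts is not known. Among 57 hairpins with some but not all listed arms at a second hairpin, 32 (56.1%) had at least 10 counts in both libraries. Among 926 hairpins with no such arm, 224 (24.2%) did, Mir21a and Mir214 among them. These classes were not matched for level, and whether sharing of arms bears on detection was not tested. Hairpins with all arms shared held 0.147% and 0.0556% of the hairpin counts in the 2 libraries.

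Among the 288 hairpins with at least 10 counts in both libraries, Mir214 was number 41 and Mir21a number 46 by mean CPM, so both lay above at least 84.0% of them. The median of these hairpins was 94.2 CPM. Next above Mir21a were Mir127 and Mir34a, and next below it Mir150 and Mir92-1, with means from 1815 ± 240 to 2218 ± 754 CPM (SD, n = 2). The mean of Mir21a differs from each of these 4 by less than 1 SD of that neighbour. Around Mir214 lay Mir130a (2593 ± 328 CPM) and Mir499 (2473 ± 220 CPM) above and Mir155 (2307 ± 954 CPM) and Mir320 (2256 ± 739 CPM) below, all closer than the SD of Mir214. Mir199b was number 239, below Mir376a (13.3 ± 5.06 CPM) and Mir7688 (13.3 ± 8.75 CPM) and above Mir668 (12.2 ± 1.34 CPM) and Mir378b (12.2 ± 3.44 CPM), all within 1 SD of Mir199b.

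**Figure D3:**
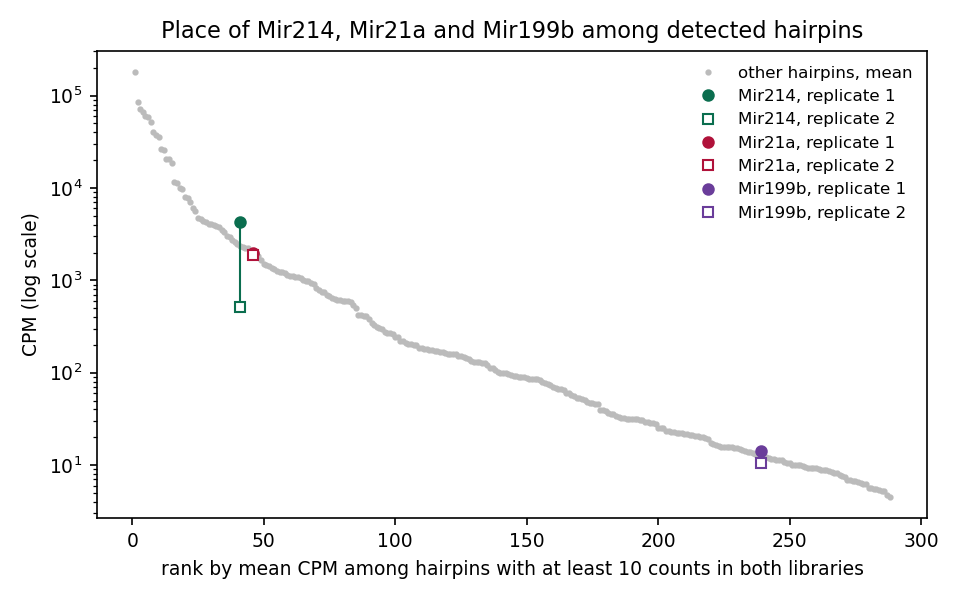
CPM (log axis) against rank by mean CPM for the 288 hairpins with at least 10 counts in both libraries. Grey points are means of other hairpins, and filled circles and open squares are replicates 1 and 2 of the named hairpins. Mir214 spans a wide vertical line at rank 41, while Mir21a at rank 46 and Mir199b at rank 239 do not.

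The only comparison the design allows is between the 2 hearts, and it covers counting error alone, since 1 library stands for each animal. Counts were scaled with TMM factors from edgeR, and the 326 hairpins that reached 10 counts in either library were tested by an exact two-sided binomial test with Benjamini-Hochberg adjustment. A log2 ratio sets replicate 2 over replicate 1, both as scaled CPM plus 1. Over all tested hairpins, 62.6% passed at an adjusted p of 0.05, 36.2% higher and 26.4% lower in replicate 2, so passing this test is common. With scaling by total count the calls were split as 76 higher and 117 lower, against 118 and 86 with TMM. The biological coefficient of variation, the spread beyond counting error over all tested hairpins, was 0.467. Of the 5 hairpins, 3 could be tested, with 1 lower, 1 higher and 1 that did not pass, and a median log2 ratio of -0.18 against 0.09 for all tested hairpins.

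Mir214 was lower in replicate 2, with a log2 ratio of -2.83. On the TMM scale, its counts were 7.13-fold lower (95% exact interval 6.73 to 7.55). The adjusted exact binomial p had a log10 of -1473. The log2 ratio was the fourth lowest of the 326, where 5% lay below -1.67 and 5% above 1.65, and 7 hairpins (2.15%), Mir214 included, had a ratio at least as far from 0. Among the 90 hairpins that reached 1000 counts in either library, it was the lowest, ahead of Mir195a at -2.78, and the farthest from 0, since the highest ratio was 2.46. Mir195a, a microRNA that restrains the cell cycle, was the hairpin with the closest ratio over these 2 libraries, with 14176 and 2283 counts. Mir301, with 349 and 43 counts and a log2 ratio of -3.10, was the second closest.

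Mir21a differed little between the libraries, and the direction depended on the scaling. Its log2 ratio was 0.18 with TMM factors (adjusted exact binomial p = 1.62e-08) and -0.053 with scaling by total count (adjusted exact binomial p = 0.124). On the TMM scale the fold was 1.13 (95% exact interval 1.08 to 1.18). The choice of scaling moved the median log2 ratio of all tested hairpins from 0.09 to -0.14, a shift of 0.23. Its closest ratios were those of Mir92-2 (log2 ratio 0.16, with 181 and 224 counts) and Mir374b (0.15, with 81 and 100 counts).

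Mir199b did not pass the test, with a log2 ratio of -0.18 (adjusted exact binomial p = 0.756). The fold of replicate 2 over replicate 1 was 0.873 with a 95% exact interval of 0.50 to 1.52. These counts do not tell folds within that range apart. The closest ratios were those of Mir27a (-0.18) and Mir27b (-0.18). Mir199a-2, under 10 counts in both libraries, was not tested. Its fold was 0.603 (0.177 to 1.90). Mir199a-1 has no ratio.

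**Figure D4:**
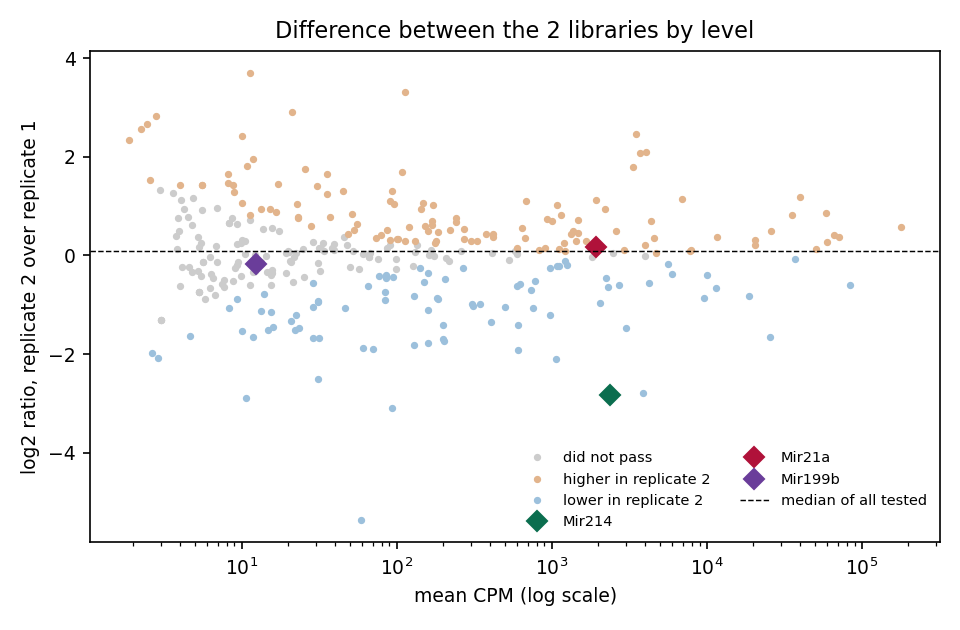
Log2 ratio of replicate 2 over replicate 1 against mean CPM (log axis) for the 326 tested hairpins, coloured by the exact binomial test, with a dashed line at their median. Mir214 is the lowest of the abundant hairpins, with the point of Mir195a just to its right, Mir21a sits close to the line, and Mir199b lies among hairpins that did not pass.

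The 2 main hairpins were also compared within each library, where no scaling enters. Of the sum of Mir214 and Mir21a, Mir214 made up 68.3% in the first library (95% exact interval 67.5 to 69.1). In the second it made up 21.1% (95% exact interval 20.1 to 22.1). There were 2.15 counts of Mir214 per count of Mir21a in replicate 1 and 0.267 in replicate 2. The odds ratio was 8.06, and the two-sided Fisher's exact p of these read counts had a log10 of -867. This again compares 2 libraries and not conditions.

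The lists that follow are read against the 36.2% of all tested hairpins that were higher in replicate 2 and the 26.4% that were lower. In a list of 13 hairpins of fibroblasts, smooth muscle and related cells, 8 were higher in replicate 2, 3 were lower and 2 did not pass, with a median log2 ratio of 0.70 (0.47 by total count, where 7 were higher), against 0.09 for all tested hairpins. Mir143 and Mir145a, the pair of smooth muscle cells and pericytes, had 57656 and 113109 counts and 2534 and 15387 counts. Mir140, best known from cartilage, had 3621 and 17023, Mir100 had 9977 and 24228, and Mir322, a regulator of cell cycle exit, had 7536 and 13588. Mir152 (523 and 167), Mir27a (2967 and 2889) and Mir218-1 (11 and 1) were lower. Of the 12 with at least 10 counts in both libraries, none had a log2 ratio as low as that of Mir214, the lowest being -1.78 for Mir152. Mir218-1, with 1 count in replicate 2, has a log2 ratio of -2.08 that depends on the 1 CPM added, so it was not ranked against Mir214. Per 1000 counts of Mir143 there were 151 of Mir214 in replicate 1 and 12.0 in replicate 2, and 70.2 and 44.8 of Mir21a.

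Of 8 microRNAs reported to promote fibrosis, 5 were lower in replicate 2, 1 was higher and 2 did not pass (median log2 ratio -0.45), beside 26.4% lower and 36.2% higher among all tested hairpins. By total count 6 were lower. Mir22, a microRNA of cardiac growth, had 82929 and 29076 counts. Mir34a, a target of p53 linked to ageing hearts, had 5888 and 3354, and Mir155, a microRNA of immune cells, 6113 and 4344. Mir132, linked to hypertrophy, was the higher one with 718 and 1080. In replicate 1 Mir214 had more counts than Mir155 and Mir34a, and in replicate 2 fewer than both.

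Of 20 microRNAs reported to restrain matrix genes, 17 were tested, 10 lower and 7 higher in replicate 2 (median log2 ratio -0.39), beside 26.4% and 36.2% of all tested hairpins. By total count, 11 were lower and 4 higher. All 4 tested miR-29 hairpins, whose mature microRNAs repress collagens, were lower. Mir29a, the most abundant of them, had 11008 and 8219 counts (log2 ratio -0.57), and Mir29b-2, with the lowest ratio of them, had 33 and 11 (-1.53). Mir30d (51763 and 32261) and Mir30a (25030 and 21072), of a family that represses the matrix regulator Ctgf, were lower, and of the other members Mir30e was lower and Mir30b, Mir30c-1 and Mir30c-2 were higher; by total count Mir30c-1 did not pass and Mir30c-2 was lower. Mir26b was higher with 48680 and 75729. Mir26a-1 had the highest ratio of the list, with 10 and 99 counts (2.91), and Mir26a-2 was lower with 136 and 71 (-1.06). Mir133a-1, Mir133a-2 and Mir133b had at most 8 counts each. No count of this list, those of Mir26a-1 and Mir26a-2 included, holds reads matching several places. Whether such reads bear on these counts and ratios was not tested.

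**Figure D5:**
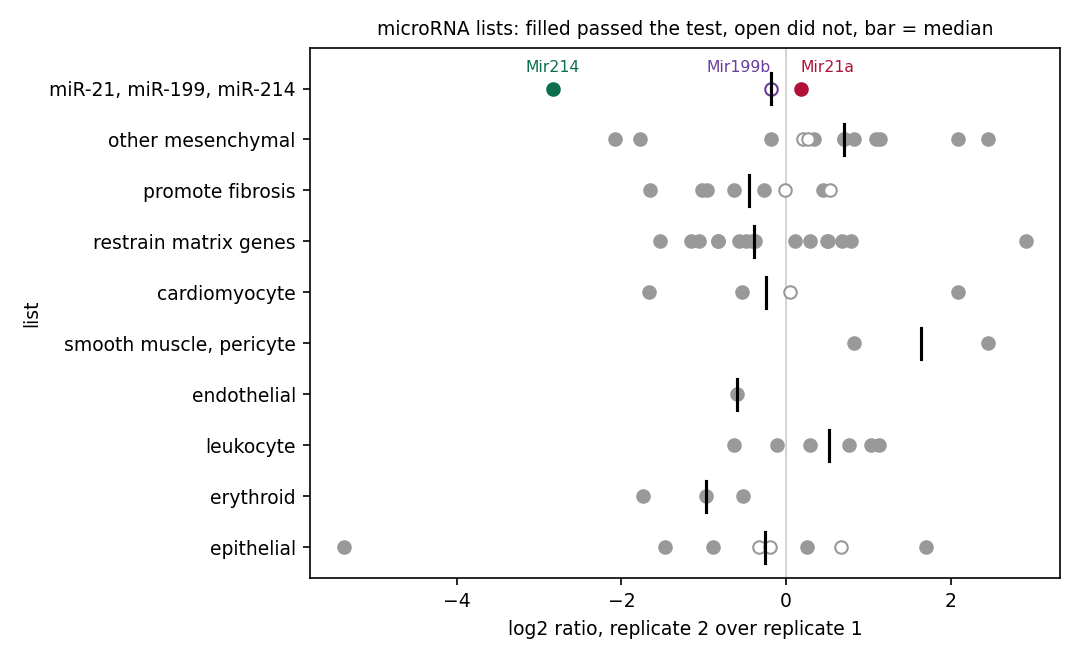
Log2 ratio of replicate 2 over replicate 1 (x axis) for each tested hairpin of the miR-21, miR-199 and miR-214 group and of 9 other lists (rows). Filled points passed the exact binomial test, open points did not, and a bar marks the median of each row. Mir214 lies left of all points of the other mesenchymal list, whose median is 0.70 and whose lowest point, Mir218-1, rests on 11 and 1 counts and on the 1 CPM added.

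Markers of other heart cells also differed between the 2 libraries, and their part in the Mir214 difference was not tested. The smooth muscle and pericyte pair summed to 29354 CPM in replicate 1 and 48287 in replicate 2, both members higher. Of the 2 endothelial hairpins, Mir126a was lower (108082 and 60950 CPM) and Mir126b had 1 and 0 counts. The 7 cardiomyocyte hairpins summed to 4493 and 8308 CPM, with Mir208a higher, Mir208b and Mir1a-2 lower and Mir499 not past the test, though Mir499 was lower by total count. Mir208a (1620 and 5862 CPM) and Mir499 (2629 and 2317 CPM) held most of that sum. Mir1a-1, Mir133a-1 and Mir133a-2 had at most 8 counts each. Whether reads matching several places, which no hairpin count includes, bear on the low Mir1a and Mir133a counts was not tested. The leukocyte list of 7 summed to 7438 and 7203 CPM, with 4 higher, 2 lower and Mir142b at 0 in both libraries. Its highest were Mir155, Mir150 and Mir342, and by total count Mir342 did not pass, leaving 3 higher. The erythroid list of 3 hairpins in the tables summed to 1783 and 869 CPM, with Mir486, Mir451a and Mir144 all lower. The epithelial list of 10 summed to 432 and 386 CPM, with Mir200c (361 and 478 counts) and Mir203 (117 and 424) higher, 3 lower, led by Mir205 (238 and 4), and 3 not past the test. By total count Mir200c did not pass. Over the same libraries the 5 hairpins followed here summed to 6244 and 2424 CPM. Of this, Mir214 held 4251 and 508 CPM and Mir21a 1974 and 1903 CPM.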

How the data were processed

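MicroRNA-seq of heart tissue from 2 mice gave 2 tables of 2202 hairpins. The authors deposited raw read counts per hairpin on mm10 with GENCODE M21, per the file headers of the accompanying notes; no aligner, counter or setting is given in the sources used here. Only sense-strand counts entered the main values. Totals leave out rows without a hairpin: unmapped reads (14.1% and 11.5%), reads matching several places (38.5% and 41.6%) and reads in no hairpin (6.48% and 5.64%). PCR copies were not told apart, so intervals and the limits for counts of 0 describe counting error alone.

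Symbols, hosts and hairpin sequences came from GENCODE M21 and mature arms from RefSeq (GRCm38.p6). All 5 hairpins matched, and their sequences were identical in both sources. Shared sequence was searched among annotated hairpins on both strands, not in the genome. Scaling used TMM in edgeR 4.0.16 under R 4.3.3, with tests in scipy 1.17.1. The test script was tested on simulated data that held counting error alone, without the spread between animals. The alternatives were total count, DESeq2 1.42.0 size factors, other count minimums and pseudocounts, the either-strand column, other totals and leaving out each replicate. Other lists covered other mesenchymal, fibrosis-restraining, fibrosis-promoting, cardiomyocyte, endothelial, smooth muscle, leukocyte, erythroid and epithelial microRNAs. The 5 hairpins and all lists were chosen with earlier results of these data known. Named were the 5 hairpins, their nearest neighbours in level (2 on each side) and in ratio (2 each, among hairpins with at least 100 counts in a library), sequence relatives, and the 3 hairpins of each list with the highest mean CPM. Mir29a, Mir29b-2, the other Mir30 hairpins, Mir26a-1, Mir26a-2, Mir133a-1, Mir133a-2, Mir133b, Mir132, Mir140, Mir152, Mir218-1, Mir1a-1, Mir1a-2, Mir142b, Mir302d, Mir21b and Gm23363 were named outside that rule after their values were seen.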

Additional observations from a re-analysis of the deposited data

Results flagged for a closer look

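Reads matching several places lie outside the hairpin counts and numbered 1925044 in replicate 1 and 2686901 in replicate 2. They stand here because they exceed the 3 counts that a count of 0 allows, which does not show that they are unusual. How many came from the arms of miR-199a, found in 2 or 3 annotated hairpins, was not tested. With 2 libraries in 1 group, a test for a library lying apart from the others was not run.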

How the results depend on the processing

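The direction and call of Mir214 were the same under all 8 alternatives, with log2 ratios from -3.06 to -2.82, and Mir199b did not pass under any of the 7 that could test it (log2 ratios -0.39 to -0.14). Mir21a changed: its log2 ratio was -0.053 with scaling by total count, 0.065 without the 10 highest hairpins, 0.0092 with at least 50 counts and 0.073 with at least 1 count, and it did not pass the test in these (adjusted exact binomial p from 0.0586 to 0.797). It passed with DESeq2 size factors (0.10). The share of hairpin counts held by the 5 hairpins was 1.33% with a total that leaves out the 10 highest hairpins and ran from 0.242% to 0.624% with each replicate left out in turn, the lower value without replicate 1. The share of Mir214 in Mir214 plus Mir21a ran from 21.1% to 68.3% in the same way. Hairpins called higher in replicate 2 numbered 118 of 326 tested, but 76 of 326 by total count (with 117 lower) and 74 with at least 50 counts, where only 223 were tested. Apart from that smaller number tested, the cause of these shifts was not tested. Leaving out a replicate removes the comparison of the libraries, so it gave no ratio. No paired analysis was possible because both libraries belong to 1 group. The miR-199 hairpins had at most 29 counts, so their intervals are wide. Division by hairpin length was chosen after seeing the data.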

Other observations

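Mir21b, Mir21c and Gm23363 had few or no counts. Mir21b and Mir21c, which carry copies of the miR-21a-5p stretch with 4 and 6 substitutions, had 0 counts in both libraries, as did 70.6% of all annotated hairpins. In Mir21b the substitutions were C4U, G18A, G21U and A22C, so 1 of them (C4U) falls in the seed, while the 6 of Mir21c begin with A16G and leave the seed as it is. Gm23363, the annotated hairpin nearest to Mir199b, starts 195 nt away on chromosome 2 and had 3 and 1 counts.

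RefSeq listed an arm under the symbol of 1018 of the 2202 hairpins, and the counts of hairpins by shared arms cover these alone. These 1018 held 77.5% of the hairpin counts in replicate 1 and 72.8% in replicate 2.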
